A study of Mus musculus with 9 samples.

Results

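MHC class I presentation genes were followed through naive CD4+ T cells, which are helper T cells before their first contact with antigen, from the spleens of mice in which IL-1b or the NLRP3 inflammasome had been blocked. The set was given as a list of 9 genes, out of 55487 gene IDs in the tables: the heavy chains H2-K1, H2-D1, H2-Q7 and H2-T23, the light chain B2m, the peptide transporter subunits Tap1 and Tap2, the loading chaperone Tapbp, and the transcriptional regulator Nlrc5. All 9 passed the filter on low counts. Poly(A) RNA was measured in 9 libraries, in 3 groups of 3. The anti-IL-1b group came from mice that received neutralizing anti-IL-1b antibody in vivo on 10 consecutive days. The MCC950 group came from mice given MCC950, a small molecule inhibitor of the inflammasome sensor NLRP3, over the same number of days. The untreated group is labelled as having no treatment, and no control antibody or vehicle is named. All mice were wild type (WT) and of strain C57BL6/J, and the labels give no sex, age, sort or gate. The libraries held between 14775375 and 21394797 expected counts in total.

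MHC class I molecules carry peptides made inside a cell to its surface, where CD8+ T cells and natural killer cells inspect them. The proteasome and cytosolic peptidases cut the peptides, the TAP transporter moves them into the endoplasmic reticulum, and tapasin, the product of Tapbp, holds an empty heavy chain paired with B2m until a fitting peptide is bound. Nearly all nucleated cells, resting T cells among them, display class I. NLRC5 is a transactivator that raises the transcription of class I heavy chains, B2m and the TAP and immunoproteasome genes in lymphocytes, and it works through a group of sequence boxes just upstream of their start sites. Interferons raise the same genes.

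Those upstream boxes can be seen in the promoters, which are shown because members that carry nearly the same letters are compared with members that do not. RefSeq start sites of the GRCm38.p6 build were found for 7 members, all except Tap2 and Nlrc5. Each line is 110 bases on the strand of the gene, with capitals at every match to GGGGATTCCC (an NF-kB type site of class I enhancers, its letters read from the H2-K1 promoter), AANNGAAA (part of an interferon response element), TGACG (the core of the box bound by CREB and ATF factors) and ATTGG (the reverse of a CCAAT box, bound by NF-Y). Both strands were searched, so a match on the other strand appears as its reverse complement, such as TTTCACTT. The motifs and the spacing below were chosen after these promoters had been seen.
H2-K1 (chr17:34000354-34000463, minus strand): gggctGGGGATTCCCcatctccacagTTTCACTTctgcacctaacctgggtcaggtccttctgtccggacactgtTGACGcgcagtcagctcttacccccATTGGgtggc
H2-D1 (chr17:35262918-35263027, plus strand): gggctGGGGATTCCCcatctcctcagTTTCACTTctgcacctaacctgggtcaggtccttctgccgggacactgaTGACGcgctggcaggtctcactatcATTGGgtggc
H2-Q7 (chr17:35439017-35439126, plus strand): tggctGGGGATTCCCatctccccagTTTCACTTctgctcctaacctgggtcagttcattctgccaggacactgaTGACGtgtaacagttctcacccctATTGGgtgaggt
H2-Q6 (chr17:35424672-35424781, plus strand): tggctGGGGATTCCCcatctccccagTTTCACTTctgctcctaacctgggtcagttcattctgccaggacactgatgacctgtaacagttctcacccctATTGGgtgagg
B2m (chr2:122147534-122147643, plus strand): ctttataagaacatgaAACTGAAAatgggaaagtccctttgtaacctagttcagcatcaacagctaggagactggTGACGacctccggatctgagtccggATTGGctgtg
Tap1 (chr17:34187395-34187504, plus strand): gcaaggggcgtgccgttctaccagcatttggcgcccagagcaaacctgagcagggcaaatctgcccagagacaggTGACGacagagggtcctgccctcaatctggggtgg

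The H2-K1 and H2-D1 stretches were identical at 99 of 110 positions. TGACG was followed after 20 bases by ATTGG in H2-K1, H2-D1 and B2m, and after 19 bases in H2-Q7. The search covered whole RefSeq windows, from 250 bases before to 50 after a start site. The 20 base spacing occurred in 31 of 32851 such windows (0.0944%), GGGGATTCCC in 35 (0.107%), AANNGAAA in 23.9%, TGACG in 20.8% and ATTGG in 37.4%. The Tap1 window held TGACG with no ATTGG after it in this stretch, and the H2-Q6 window held no TGACG. The windows of H2-T23 and Tapbp, which are not printed, held neither TGACG nor GGGGATTCCC. Both held ATTGG, and H2-T23 also held AANNGAAA. These matches describe letters only.

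On a per-length scale, TPM, in which counts are divided by transcript length and scaled to one total per library, H2-K1 was by far the most abundant member. It stood at 6137 ± 160 TPM in anti-IL-1b libraries, 6447 ± 88.9 TPM in MCC950 libraries and 6957 ± 54.5 TPM in untreated libraries (SD, n = 3), and ranked 14, 14 and 12 among all genes by mean TPM. B2m followed at 2442 ± 52.3, 2373 ± 39.2 and 2794 ± 64.9 TPM in the same order of groups, then H2-D1 at 2148 ± 65.1, 2199 ± 7.67 and 2374 ± 31.4 TPM. H2-Q7 stood at 1127 ± 38.7, 1126 ± 35.3 and 1181 ± 26.0 TPM, and H2-T23 at 518 ± 11.6, 538 ± 11.5 and 463 ± 15 TPM. These 5 surface chains kept that order without overlap between neighbours in all 3 groups, while the other 4 genes did not. In anti-IL-1b libraries Tap1 (260 ± 1.69 TPM) and Nlrc5 (242 ± 8.81 TPM) both lay within the range of Tapbp (255 ± 33.1 TPM), with Tap2 lowest at 184 ± 11 TPM. In MCC950 libraries the order was Tapbp (275 ± 11.8 TPM), Tap1 (246 ± 5.12 TPM), Tap2 (215 ± 13.3 TPM) and Nlrc5 (201 ± 11.2 TPM), with Tap2 and Nlrc5 overlapping. In untreated libraries Tapbp (220 ± 14 TPM) overlapped Tap1 (208 ± 11 TPM), and Tap2 (171 ± 5.66 TPM) overlapped Nlrc5 (169 ± 17.9 TPM).

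The libraries of the groups also differed outside class I, and those differences accompany every result that follows. In edgeR's test at an adjusted p of 0.05, 15.4% of all genes tested were higher and 18.5% lower with the antibody. With MCC950 these shares were 17.7% and 19.1%. Genes that respond to tissue handling and stress, such as Fos, Jun and Hspa1a, were lower in both treated groups for 13 of 13 listed genes, with a summed level (CPM, counts scaled to library size) of 3366 to 3586 CPM in anti-IL-1b libraries and 3778 to 3935 CPM in MCC950 libraries, against 19170 to 19470 CPM in untreated libraries. B cell markers, cells that carry class I as well, were higher for 13 of 13 genes in both treated groups, at summed levels of 102 to 111 CPM in anti-IL-1b libraries and 112 to 135 CPM in MCC950 libraries, against 21.5 to 27.6 CPM untreated. Of 10 neutrophil markers 8 were tested, and 8 were higher with the antibody and 7 with MCC950, at 29.5 to 31.3 and 14.1 to 17.1 CPM, against 1.10 to 1.34 CPM untreated, where S100a8, Retnlg, Lcn2, Ly6g and Camp had no count. Of 10 markers of CD8+ T and natural killer cells 7 were tested, and 4 were higher and 1 lower with the antibody and 3 were higher with MCC950, at 96.4 to 106 and 99.3 to 105 CPM, against 66.4 to 73.8 CPM untreated, where Ncr1 and Klrb1c had no count. The single markers in that sum differed widely. Cd8a stood at 19.4 ± 2.69 and 19.7 ± 1.07 CPM with the antibody and MCC950, against 0.970 ± 0.270 CPM untreated. Prf1, the largest part of the sum, stood at 36.9 ± 3.39 and 42.5 ± 0.85 CPM, against 45.9 ± 2.29 CPM untreated. Of 12 myeloid and dendritic cell markers 5 were tested, and 4 were higher and 1 lower with the antibody and 3 were higher with MCC950, at 12.9 to 16.2 and 12.3 to 15.2 CPM, against 3.77 to 5.12 CPM untreated. Of 6 red cell genes 4 were tested and higher with both agents, at 4.38 to 5.01 and 5.92 to 9.69 CPM, against 0.122 to 0.445 CPM untreated. The 9 markers of naive CD4+ T cells, such as Cd4 and Ccr7, summed to 6382 to 6392, 5837 to 5861 and 6467 to 6561 CPM in the anti-IL-1b, MCC950 and untreated libraries, with 3 higher and 3 lower with the antibody and 2 higher and 5 lower with MCC950. Ccr7 was at -0.50 with the antibody and -0.55 with MCC950, and the median log2 fold change of the list was -0.02 and -0.09. The part of these differences in the class I values was not tested. In bulk RNA, fewer cells of a type and less RNA per cell cannot be told apart.

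Against untreated cells, the classical heavy chains, H2-Q7 and B2m were lower under both agents, while H2-T23, Tap1, Tapbp and the regulator Nlrc5 were higher. The exceptions under scaling to library totals were H2-Q7 with the antibody and H2-K1 with MCC950, which ended slightly above 0. With the antibody, 8 of 9 members passed the threshold of an adjusted p of 0.05 in edgeR's quasi-likelihood test, 4 higher (H2-T23, Tap1, Tapbp and Nlrc5) and 4 lower (H2-K1, H2-D1, H2-Q7 and B2m). Of all 13374 genes tested 34.0% passed in that comparison (15.4% higher and 18.5% lower), and 71.7% of the 769 genes at the level of these members, a mean log2 CPM of at least 8. With MCC950 all 9 members passed, with Tap2 added to those that were higher, beside 36.8% of all genes (17.7% higher and 19.1% lower) and 71.8% of genes at that level. The counts of members that passed were therefore near what abundant genes gave in these libraries. The share of all tested genes without overlap between groups was not counted, so the lack of overlap in members has no background to be read against. The median log2 fold change of the members was -0.07 with the antibody and 0.16 with MCC950, against 0.00 and 0.01 over all genes. As the members split by direction, this median is the value of Tap2 with the antibody and of Nlrc5 with MCC950. It does not give a direction of the set, and every member except Tap2 had the same sign with both agents. The 2 comparisons share the untreated libraries. Library values below are CPM after edgeR's TMM scaling, and differences are log2 fold changes with their standard error and the Benjamini-Hochberg adjusted p.

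**Figure D1:**
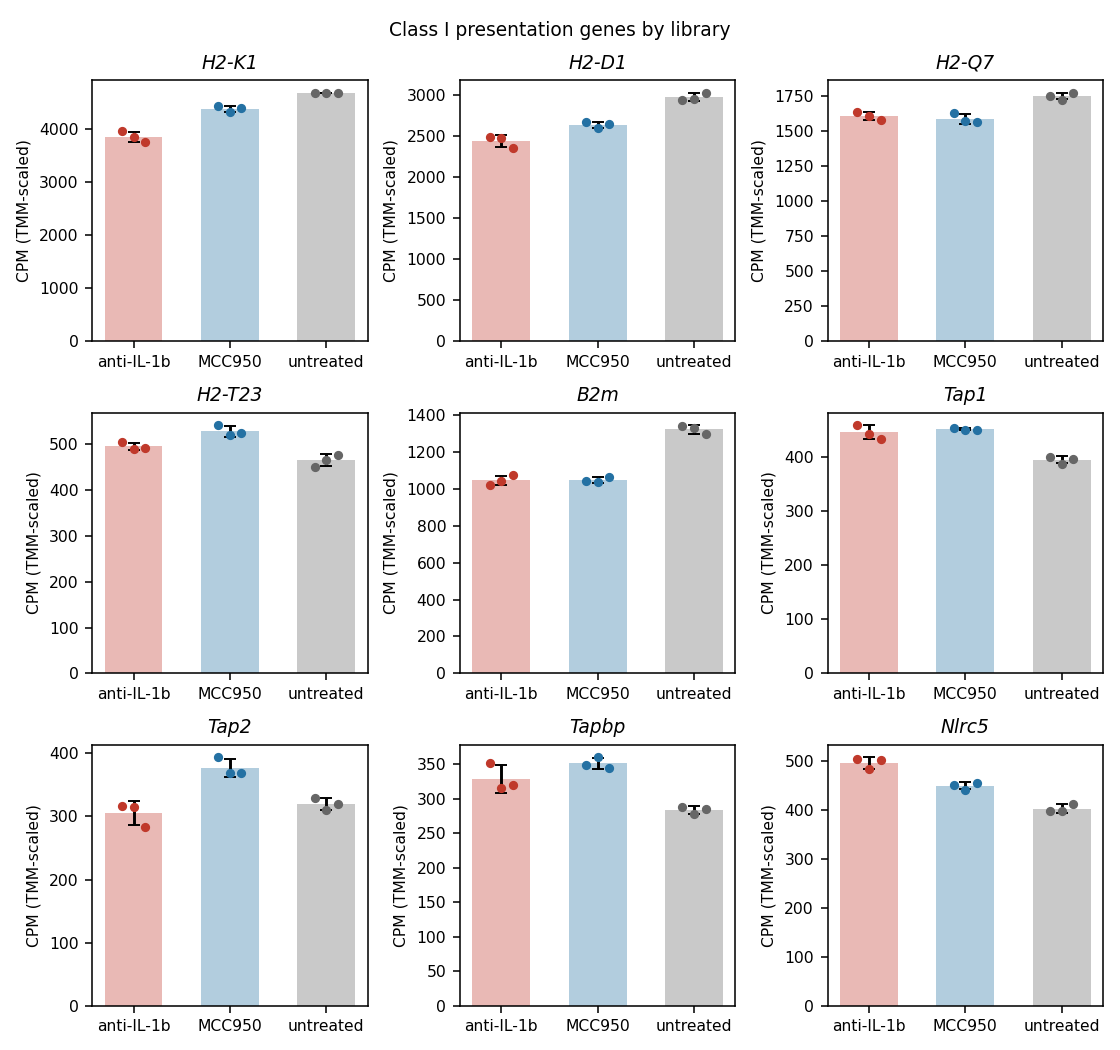
Level of each member in CPM after TMM scaling, with 1 point per library, bars at the mean of 3 libraries and error bars of 1 SD. H2-K1, H2-D1, H2-Q7 and B2m sit lower in both treated groups than in untreated libraries without overlap, and H2-T23, Tap1, Tapbp and Nlrc5 sit higher, while Tap2 is higher with MCC950 and overlaps the untreated libraries with anti-IL-1b.

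H2-K1 (chromosome 17, 33996017 to 34000347, minus strand, GRCm38) and H2-D1 (chromosome 17, 35262730 to 35267499, plus strand) encode the classical heavy chains, which present peptides to CD8+ T cells. H2-K1 stood at 3963, 3849 and 3772 CPM in anti-IL-1b libraries, 4434, 4328 and 4413 CPM in MCC950 libraries, and 4693, 4693 and 4695 CPM in untreated libraries. The 3 groups did not overlap, with the antibody lowest and MCC950 between. H2-K1 fell by 0.28 ± 0.02 on the log2 scale with the antibody (adjusted p = 1.13e-14) and by 0.10 ± 0.02 with MCC950 (adjusted p = 0.000200). The smaller of these, with MCC950, was not seen under scaling to library totals (0.02, adjusted p = 0.524). H2-D1 stood at 2482, 2474 and 2352 CPM with anti-IL-1b, 2663, 2596 and 2639 CPM with MCC950, and 2937, 2947 and 3025 CPM untreated. The same order held without overlap, and H2-D1 fell by 0.29 ± 0.02 with the antibody (adjusted p = 2.00e-13) and by 0.17 ± 0.02 with MCC950 (adjusted p = 5.39e-08). Under library totals H2-K1 and H2-D1 with the antibody came to -0.15 and -0.16, and H2-D1 with MCC950 to -0.06 (adjusted p = 0.0285). The TPM ratio of H2-K1 to H2-D1 was 2.86 ± 0.0327, 2.93 ± 0.0323 and 2.93 ± 0.0466 in the anti-IL-1b, MCC950 and untreated groups.

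H2-Q7 (chromosome 17, 35439155 to 35443773, plus strand) and H2-T23 (chromosome 17, 36029773 to 36032855, minus strand) encode nonclassical heavy chains. H2-Q7 belongs to the Qa-2 antigens, and H2-T23 encodes Qa-1, which shows leader peptides of classical class I to the CD94 and NKG2A receptor of natural killer cells. H2-Q7 stood at 1635, 1605 and 1576 CPM with anti-IL-1b, 1626, 1570 and 1561 CPM with MCC950, and 1753, 1723 and 1771 CPM untreated. Both treated groups lay below the untreated one, by 0.12 ± 0.02 (adjusted p = 6.37e-05) and 0.14 ± 0.02 (adjusted p = 7.05e-06) on the log2 scale, and both calls were lost with library totals (0.00 and -0.03) and with TPM (adjusted p = 0.159 and 0.162). H2-T23 went the other way, at 505, 489 and 492 CPM with anti-IL-1b, 542, 520 and 524 CPM with MCC950, and 452, 467 and 478 CPM untreated. No groups overlapped. The difference was 0.18 ± 0.03 with MCC950 (adjusted p = 3.60e-06) and 0.09 ± 0.03 with the antibody (adjusted p = 0.0164). The antibody call was lost without anti-IL-1b replicate 1 (0.08, adjusted p = 0.0746) or without untreated replicate 1 (0.08, adjusted p = 0.0778).

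B2m (chromosome 2, 122147686 to 122153083, plus strand), the light chain shared by all class I molecules, was lower by the same amount with both agents. It stood at 1022, 1043 and 1073 CPM in anti-IL-1b libraries, 1042, 1037 and 1064 CPM in MCC950 libraries, and 1343, 1328 and 1297 CPM in untreated libraries. The treated groups overlapped each other and lay below every untreated library. B2m fell by 0.34 ± 0.03 with the antibody (adjusted p = 4.07e-14) and by 0.34 ± 0.03 with MCC950 (adjusted p = 4.57e-14), in both cases the largest fall among the members. Under library totals it still fell, by 0.21 and 0.22, with a median over all genes of 0.13 in both comparisons.

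The loading genes lie in the MHC on chromosome 17, Tapbp from 33915899 to 33929292, Tap1 from 34187553 to 34197225 and Tap2 from 34203527 to 34216321, each on the plus strand. Tap1, one subunit of the peptide transporter, stood at 460, 444 and 434 CPM with anti-IL-1b, 454, 451 and 451 CPM with MCC950, and 401, 388 and 397 CPM untreated. Both treated groups lay above the untreated one, by 0.17 ± 0.03 with the antibody (adjusted p = 1.35e-05) and 0.19 ± 0.03 with MCC950 (adjusted p = 2.01e-06). Tap2, the other subunit, stood at 317, 316 and 283 CPM with anti-IL-1b, 394, 368 and 370 CPM with MCC950, and 329, 310 and 320 CPM untreated. It was higher with MCC950, by 0.24 ± 0.04 (adjusted p = 3.91e-06). With the antibody its log2 fold change was -0.07 ± 0.04 (adjusted p = 0.198), and the groups overlapped. Tapbp stood at 352, 315 and 319 CPM with anti-IL-1b, 349, 360 and 344 CPM with MCC950, and 288, 278 and 285 CPM untreated. It was higher by 0.21 ± 0.04 with the antibody (adjusted p = 7.98e-06) and by 0.31 ± 0.04 with MCC950 (adjusted p = 4.28e-09), without overlap. On TPM the antibody call was lost (0.21, adjusted p = 0.110), with anti-IL-1b libraries spread from 223 to 289 TPM and untreated ones from 204 to 230 TPM. Tapbp overlaps Zbtb22 over 3422 bases on the same strand, so part of its reads may have been divided with that gene.

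Nlrc5 (chromosome 8, 94434356 to 94527272, plus strand) rose with both agents. It stood at 504, 483 and 502 CPM in anti-IL-1b libraries, 452, 441 and 456 CPM in MCC950 libraries, and 399, 398 and 413 CPM in untreated libraries. The 3 groups formed separate steps, with the antibody highest. The difference from untreated was 0.30 ± 0.03 with the antibody (adjusted p = 1.17e-10) and 0.16 ± 0.03 with MCC950 (adjusted p = 5.16e-05). In TMM-scaled CPM the step order of Nlrc5 across the 3 groups was thus the reverse of that of H2-K1 and H2-D1. The full order did not hold in every setting. Under library totals H2-K1 with MCC950 was at 0.02 against untreated (adjusted p = 0.524). On TPM H2-D1 overlapped between the treated groups, and the calls of H2-K1 and Nlrc5 between the agents were lost.

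**Figure D2:**
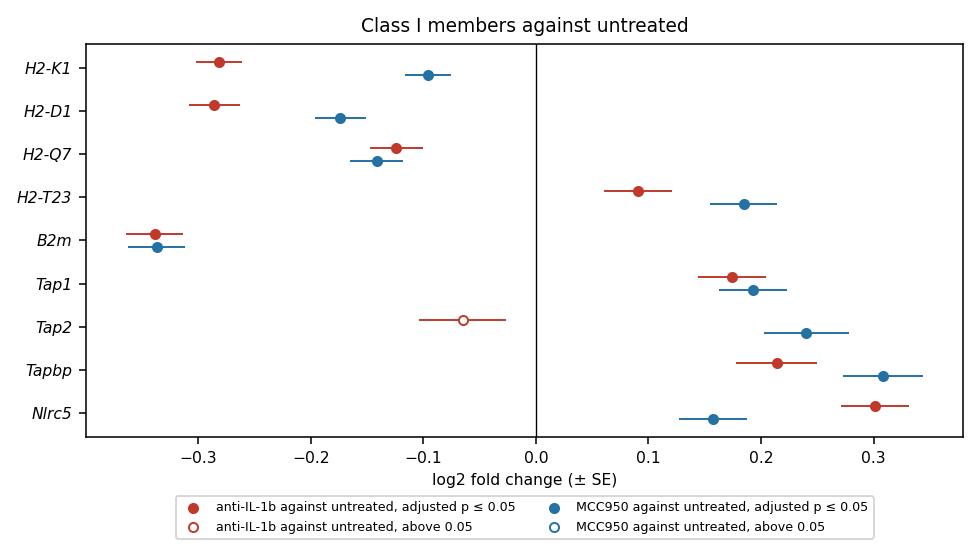
Log2 fold change against untreated of each member with anti-IL-1b (red) and MCC950 (blue), with bars of 1 standard error and filled points at an adjusted p of at most 0.05. B2m, H2-K1, H2-D1 and H2-Q7 lie left of 0 and Tap1, Tapbp, H2-T23 and Nlrc5 right of it for both agents, and Tap2 is split between them.

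Set against each other, the antibody and MCC950 differed at 5 of 9 members, beside 13.2% of all genes (6.13% higher and 7.11% lower) and 50.6% of genes at the members' level. Nlrc5 was higher with the antibody, by 0.14 ± 0.03 (adjusted p = 0.000716). Tap2 was lower with the antibody, by 0.31 ± 0.04 (adjusted p = 3.64e-07), which was the largest difference among the members. H2-K1 was lower by 0.19 ± 0.02 (adjusted p = 8.33e-09) and H2-D1 by 0.11 ± 0.02 (adjusted p = 0.000467). H2-T23 was lower by 0.09 ± 0.03 (adjusted p = 0.0305), a call lost under upper-quartile scaling, library totals, TPM and 4 of the 9 fits that leave out a library. B2m (-0.00 ± 0.03, adjusted p = 0.979), Tap1 (-0.02 ± 0.03, adjusted p = 0.771), H2-Q7 (0.02 ± 0.02, adjusted p = 0.717) and Tapbp (-0.09 ± 0.04, adjusted p = 0.0782) did not pass, and Tapbp did without anti-IL-1b replicate 1 (-0.15, adjusted p = 0.00296). On log2(TPM + 1) none of the 9 members passed in limma, 3 of them at an unadjusted p under 0.05. The ratio of Tap1 to Tap2 in TPM was 1.41 ± 0.0784 with the antibody, 1.15 ± 0.0910 with MCC950 and 1.22 ± 0.0498 untreated, with the antibody libraries above all others.

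Because heavy chain genes are alike, reads can fit several of them and RSEM divides such reads. Of all stretches of 50 bases in its transcripts, H2-K1 shared 9.6% with another gene, H2-D1 12.8%, H2-T23 13.6%, H2-Q7 26.4% and H2-Q6 32.0%, while B2m and Nlrc5 shared none and Tap1, Tap2 and Tapbp at most 2.9%. These shares do not measure the error of a value, and single heavy chain values are uncertain. All 19 heavy chain genes of the K, D, Q, T and M3 loci were therefore also summed into 1 feature. They include genes annotated as pseudogenes (H2-K2, H2-Q3 and H2-T-ps) and polymorphic pseudogenes (H2-Q5, H2-T10 and H2-Bl). The counts of the sum do not depend on how reads were divided among these 19, while sharing with genes outside the 19 was not measured apart. The sum fell by 0.26 ± 0.02 on the log2 scale with the antibody (adjusted p = 1.36e-15) and by 0.16 ± 0.02 with MCC950 (adjusted p = 1.49e-09), and it was lower with the antibody than with MCC950 by 0.11 ± 0.02 (adjusted p = 3.16e-05, lost on TPM with -0.04 and adjusted p = 0.235). Under library totals the sum was at -0.14 with the antibody and -0.04 with MCC950 (adjusted p = 0.0358). In TPM, where the division among genes of different length still enters, it came to 11420 ± 297 with the antibody, 11760 ± 136 with MCC950 and 12740 ± 92.0 untreated (SD, n = 3). H2-K1 supplied 53.8%, 54.8% and 54.6% of that sum in the anti-IL-1b, MCC950 and untreated groups.

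Among 21 other heavy chain and related genes 13 were tested, and 1 was higher and 5 lower with the antibody. With MCC950 2 were higher and 5 lower, where the second rise was Cd1d2 at 1.23 ± 0.0844 CPM. The shares that passed over all genes were 34.0% with the antibody and 36.8% with MCC950. Of the genes named in this paragraph, Cd1d2, H2-Q5 and H2-T10 are annotated as polymorphic pseudogenes. The largest fall was in H2-Q6, a relative of H2-Q7 that also encodes Qa-2. Of its stretches of 50 bases, 13.9% were shared with H2-Q7. H2-Q6 stood at 255, 236 and 240 CPM with anti-IL-1b, 262, 264 and 269 CPM with MCC950, and 538, 539 and 556 CPM untreated. Every treated library was below every untreated one, and H2-Q6 fell by 1.16 ± 0.03 with the antibody (adjusted p = 5.79e-28) and by 1.04 ± 0.03 with MCC950 (adjusted p = 2.08e-26). For each 100 TPM of H2-Q7 there were 17.4 ± 0.516, 18.1 ± 0.812 and 33.2 ± 0.296 TPM of H2-Q6 in the anti-IL-1b, MCC950 and untreated groups. How RSEM divided reads between this pair cannot be seen in the tables, and the sum of both genes, added after seeing the data, fell by 0.31 ± 0.02 with either agent (adjusted p = 2.68e-14 with the antibody and 2.99e-14 with MCC950). H2-Q4 fell by 0.34 ± 0.03 and 0.38 ± 0.03 with the antibody and MCC950, H2-Q5 by 0.34 ± 0.06 and 0.32 ± 0.06, and H2-T10 by 0.24 ± 0.05 and 0.26 ± 0.05, of which the antibody call was lost under library totals (log2 fold change -0.11) and on TPM (adjusted p = 0.0868). H2-T24 was the gene that rose with both agents, to 64.0 ± 1.93 CPM under the antibody and 69.3 ± 3.15 CPM under MCC950, against 38.6 ± 3.0 CPM untreated (log2 fold changes 0.73 ± 0.07 and 0.84 ± 0.07, adjusted p = 2.65e-11 and 3.24e-13). H2-M3, which presents formylated peptides, fell by 0.25 ± 0.07 with the antibody (adjusted p = 0.00859), a call lost under library totals and on TPM, and was at -0.04 ± 0.07 with MCC950 (adjusted p = 0.699).

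Ratios within a library do not depend on how libraries are scaled. Tap1, Tap2 and Tapbp together came to 63.5, 58.6 and 61.6 TPM for each 1000 TPM of heavy chain in anti-IL-1b libraries, 62.1, 64.0 and 61.6 in MCC950 libraries, and 49.5, 44.6 and 46.9 in untreated libraries. Every treated library lay above every untreated one (means 61.2 ± 2.47, 62.6 ± 1.26 and 47.0 ± 2.42). An exact two-sided permutation test gave p = 0.1 for each agent against untreated, the smallest that 3 against 3 libraries allow. Nlrc5 per 1000 TPM of heavy chain was 21.2 ± 0.221 with the antibody, 17.1 ± 1.12 with MCC950 and 13.2 ± 1.41 untreated, again without overlap and with the same exact p. Heavy chain per B2m was 4.68 ± 0.221 with the antibody and 4.96 ± 0.113 with MCC950, against 4.56 ± 0.138 untreated. The MCC950 libraries lay above the untreated ones (exact permutation p = 0.1), and the antibody libraries overlapped them (exact permutation p = 0.4). As a share of all TPM, the 9 members made up 1.33% ± 0.0254, 1.36% ± 0.0111 and 1.45% ± 0.00247 in the anti-IL-1b, MCC950 and untreated groups.

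**Figure D3:**
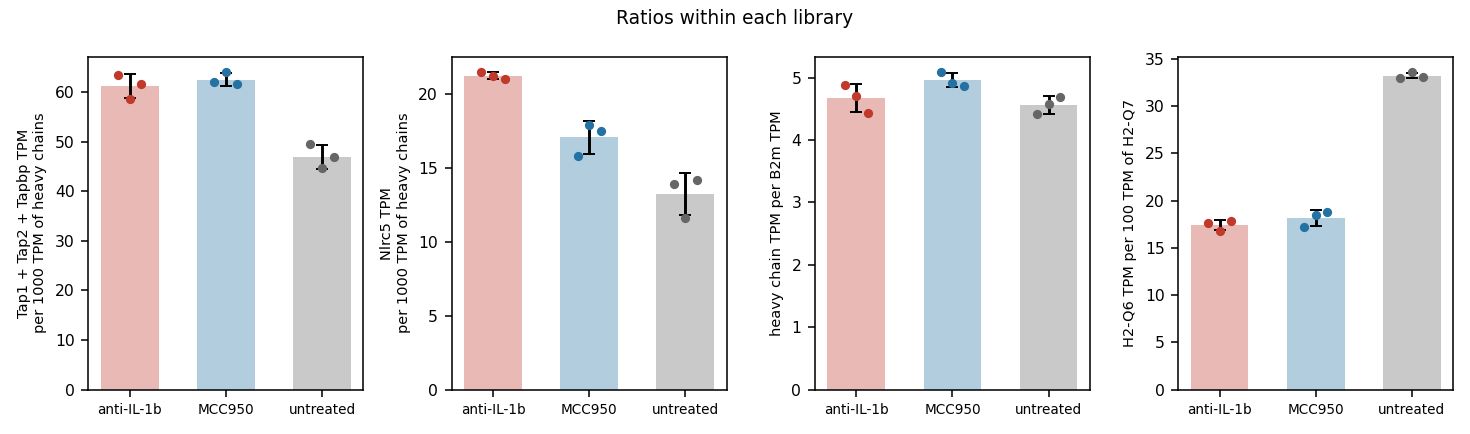
Ratios of TPM within each library, with 1 point per library, bars at the mean of 3 and error bars of 1 SD. Loading genes and Nlrc5 per heavy chain sit higher in all treated libraries than in untreated ones, heavy chain per B2m overlaps between anti-IL-1b and untreated libraries, and H2-Q6 per H2-Q7 sits at 16.8 to 18.8 in treated libraries, against 33.0 to 33.6 in untreated ones.

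Upstream of the transporter, the immunoproteasome replaces the standard catalytic subunits of the proteasome by Psmb8, Psmb9 and Psmb10, and PA28, made of Psme1 and Psme2, opens its gate. All 5 genes were higher with MCC950 and 2 with the antibody, beside 17.7% and 15.4% of all genes tested. The call of Psme2 with MCC950 was lost on TPM in limma (adjusted p = 0.0567). Psmb9, whose gene overlaps Tap1 by 212 bases on the opposite strand, stood at 154 ± 4.26 CPM in anti-IL-1b libraries and 170 ± 7.69 CPM in MCC950 libraries, against 124 ± 1.18 CPM untreated, and rose by 0.31 ± 0.04 and 0.46 ± 0.04 (adjusted p = 1.13e-07 and 8.24e-12). Psmb8 stood at 290 ± 15.5 and 342 ± 15 CPM, against 257 ± 6.28 CPM untreated, and rose by 0.18 ± 0.04 and 0.42 ± 0.04 (adjusted p = 0.000205 and 6.31e-12). Psmb10 was 0.36 ± 0.05 higher with MCC950 (adjusted p = 2.50e-07) and at 0.08 ± 0.05 with the antibody (adjusted p = 0.221). Between the agents, Psmb8, Psmb9, Psmb10 and Psme2 were lower with the antibody, with calls for Psmb9 and Psme2 lost on TPM. Of the standard subunits, Psmb5 rose by 0.47 ± 0.08 with MCC950 (adjusted p = 3.33e-06), while Psmb6 and Psmb7 were at 0.10 ± 0.06 and 0.10 ± 0.07 (adjusted p = 0.210 and 0.257). Psmb8, Psmb9 and Psmb10 together per TPM of Psmb5, Psmb6 and Psmb7 came to 2.83 ± 0.0835 with the antibody and 2.92 ± 0.124 with MCC950, against 2.58 ± 0.0624 untreated, without overlap between treated and untreated libraries (exact permutation p = 0.1 for each).

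In the endoplasmic reticulum, 3 of 11 folding and trimming genes were higher and 2 lower with the antibody, and 2 were higher and 2 lower with MCC950. Over all genes tested, 34.0% passed with the antibody and 36.8% with MCC950, so the counts of this list were near that share. The partners of tapasin in the loading complex, Calr (calreticulin) and Pdia3 (ERp57), were not among those that were higher. Calr stood at 345 ± 5.0 CPM in anti-IL-1b libraries and 370 ± 3.40 CPM in MCC950 libraries, against 389 ± 10.3 CPM untreated, and fell by 0.18 ± 0.03 with the antibody (adjusted p = 1.68e-05, lost under library totals and on TPM). Pdia3 was at -0.02 ± 0.03 and 0.06 ± 0.03 (adjusted p = 0.668 and 0.181). Hspa5, the general chaperone BiP, stood at 306 ± 5.17 and 331 ± 11.8 CPM, against 724 ± 15.5 CPM untreated, and fell by 1.25 ± 0.03 and 1.13 ± 0.03 (adjusted p = 7.97e-30 and 1.83e-28). Erap1, which trims peptides to class I length, and Tapbpl, the tapasin-related peptide editor, rose by 0.19 ± 0.04 and 0.17 ± 0.06 with the antibody (adjusted p = 0.000301, lost on TPM, and 0.0365). Of 7 cytosolic peptidases, Tpp2 and Ide fell with MCC950, by 0.27 ± 0.04 and 0.18 ± 0.07 (adjusted p = 5.05e-07 and 0.0295), and the second call was lost under 3 other scalings or units. With the antibody the log2 fold changes of the 7 ran from -0.25 to 0.45, with adjusted p of at least 0.0607.

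**Figure D4:**
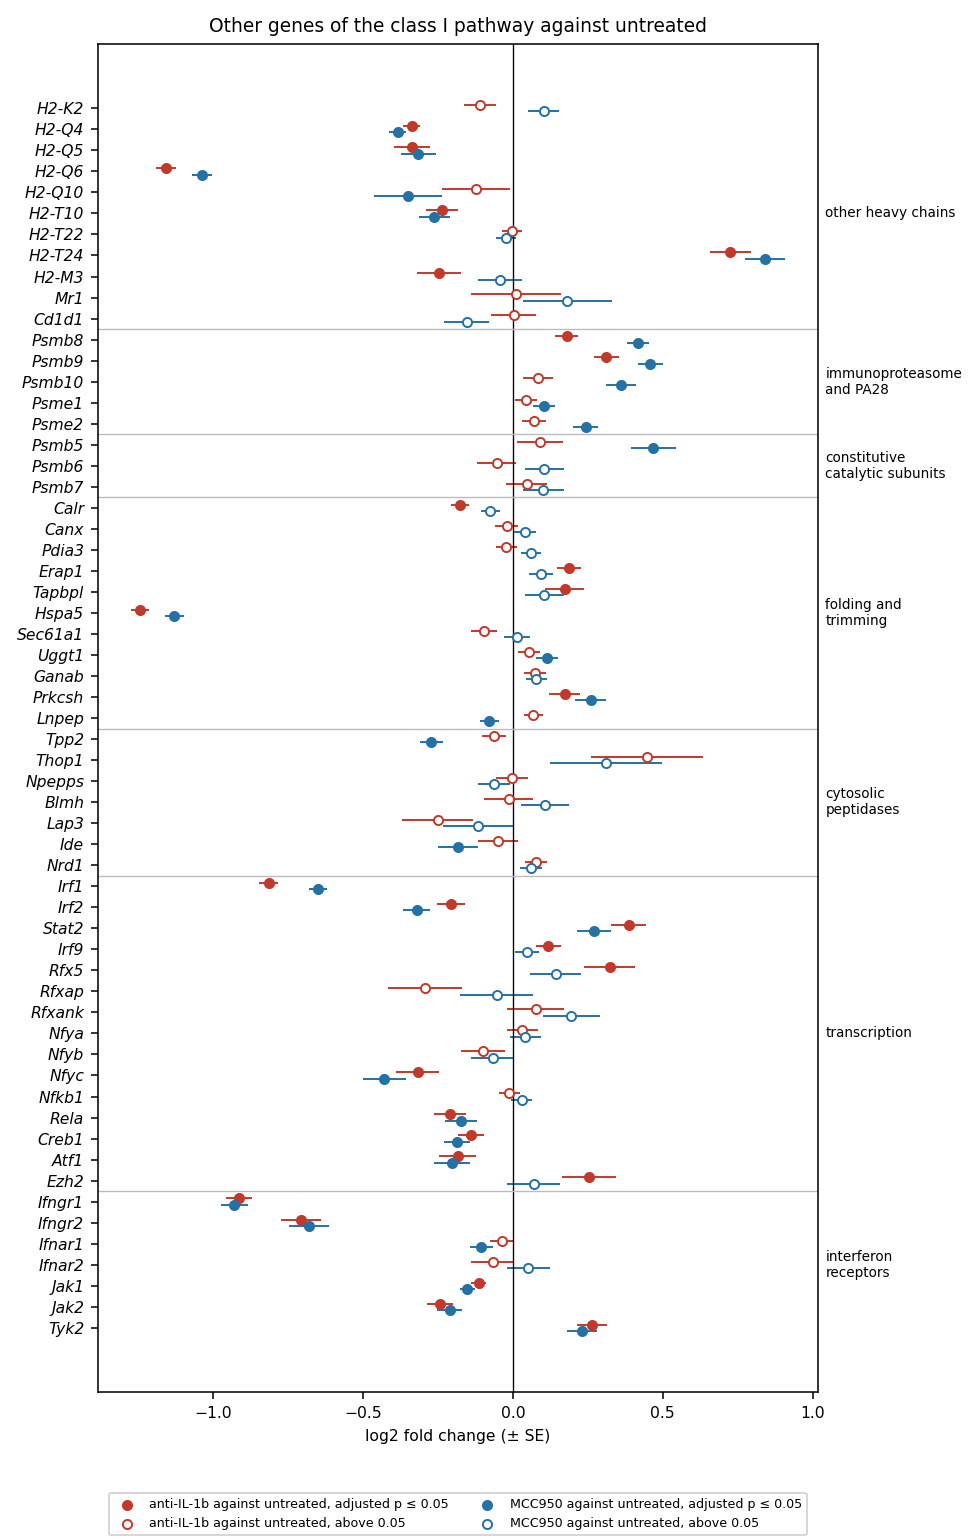
Log2 fold change against untreated of the other genes of the class I pathway with anti-IL-1b (red) and MCC950 (blue), by role, with bars of 1 standard error and filled points at an adjusted p of at most 0.05 (tested genes except the sparsely counted H2-Q2 and Cd1d2 and 1 gene not reported here). H2-Q6, Hspa5, Irf1, Ifngr1 and Ifngr2 lie farthest to the left for both agents, and H2-T24 farthest to the right.

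Of 16 genes for transcription factors and other regulators of class I genes, 4 were higher and 6 lower with the antibody. With MCC950 1 was higher and 6 lower. Beside them, 15.4% of all genes were higher and 18.5% lower with the antibody, and 17.7% and 19.1% with MCC950. Irf1, an interferon-induced activator of class I genes, stood at 269 ± 7.0 CPM in anti-IL-1b libraries and 301 ± 4.94 CPM in MCC950 libraries, against 473 ± 7.11 CPM untreated, which gave falls of 0.82 ± 0.03 and 0.65 ± 0.03 (adjusted p = 2.96e-23 and 4.41e-20). Stat2, part of the factor that type I interferon activates, rose by 0.39 ± 0.06 and 0.27 ± 0.06 (adjusted p = 9.10e-07 and 0.000234). Among the factors that bind the upstream boxes, Rfx5 rose by 0.32 ± 0.08 with the antibody (adjusted p = 0.00252, lost on TPM), and Nfyc, a subunit of NF-Y, fell by 0.32 ± 0.07 and 0.43 ± 0.07 (adjusted p = 0.000445, lost on TPM, and 5.01e-06). The other NF-Y subunits did not pass. Nfya was at 0.03 ± 0.05 and 0.04 ± 0.05, and Nfyb at -0.10 ± 0.07 and -0.07 ± 0.07 (adjusted p of at least 0.308). Rfxap was at -0.29 ± 0.12 and -0.05 ± 0.12, and Rfxank at 0.08 ± 0.10 and 0.20 ± 0.09 (adjusted p of at least 0.0644). Creb1 and Atf1 fell by 0.14 ± 0.04 and 0.19 ± 0.06 with the antibody and by 0.19 ± 0.04 and 0.20 ± 0.06 with MCC950, calls that were lost under library totals and on TPM.

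Of 7 genes for interferon receptors and their kinases, 1 was higher and 4 lower with the antibody, and 1 was higher and 5 lower with MCC950. Again, 15.4% of all genes were higher and 18.5% lower with the antibody, and 17.7% and 19.1% with MCC950. Both chains of the interferon gamma receptor fell. Ifngr1 stood at 95.6 ± 3.07 CPM in anti-IL-1b libraries and 94.6 ± 1.53 CPM in MCC950 libraries, against 180 ± 5.98 CPM untreated (falls of 0.91 ± 0.04 and 0.93 ± 0.04, adjusted p = 6.23e-20 and 2.85e-20). Ifngr2 stood at 46.7 ± 3.17 and 47.6 ± 1.22 CPM, against 76.2 ± 4.11 CPM untreated (falls of 0.71 ± 0.07 and 0.68 ± 0.07, adjusted p = 2.66e-11 and 5.34e-11). Both groups were below untreated in every library for each chain. Tyk2, a kinase of the type I interferon receptor, was the gene that rose, by 0.26 ± 0.05 and 0.23 ± 0.05. Calls for Jak1 and Jak2, whose changes were between -0.11 and -0.24, were lost under library totals or on TPM, and Jak1 with the antibody turned to 0.01 under totals and 0.07 on TPM.

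How far H2-K1, H2-D1, H2-Q7 and B2m fell depended on the scaling of the libraries. TMM factors were 1.031 to 1.035, 1.023 to 1.024 and 0.945 to 0.947 in the anti-IL-1b, MCC950 and untreated libraries, so with totals alone the median over all 13374 genes moves to a log2 fold change of 0.13 for both agents. Under totals, 4 members were higher and 3 lower with the antibody, and 5 higher and 2 lower with MCC950. B2m and H2-D1 were lower, and Tap1, Tapbp, H2-T23 and Nlrc5 higher, under all 4 scalings with both agents, while H2-K1 with MCC950 and H2-Q7 with the antibody ended near 0. Set against the median of the 9 naive CD4+ T cell markers in place of the whole library, an alternative added after seeing the data, H2-K1 with MCC950 came to -0.00, H2-D1 to -0.08 and B2m to -0.24, and Nlrc5 to 0.25.

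**Figure D5:**
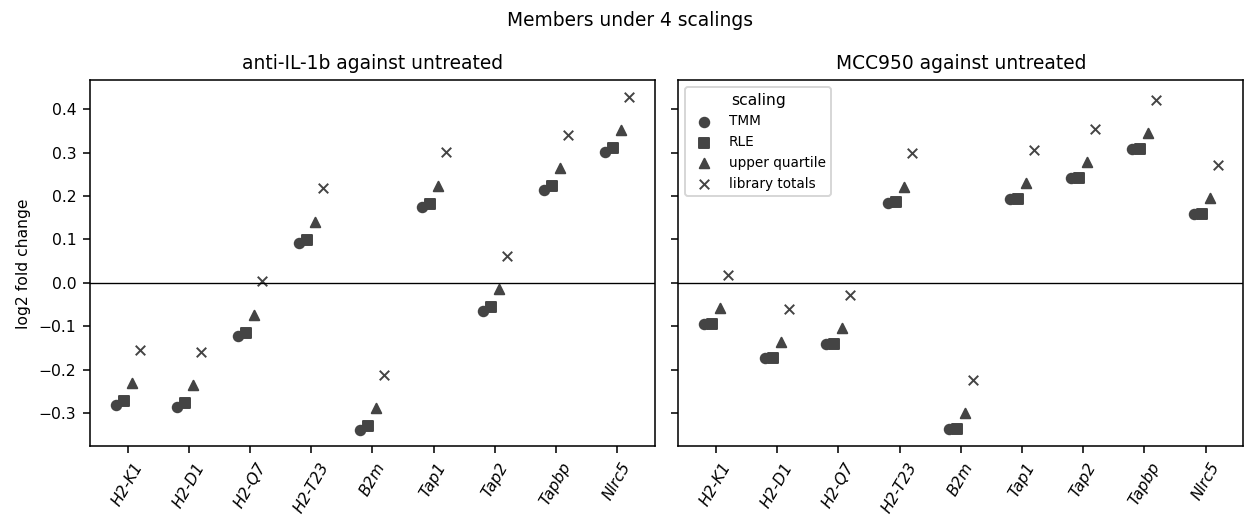
Log2 fold change of each member against untreated under TMM, RLE, upper-quartile and library-total scaling, with anti-IL-1b on the left and MCC950 on the right. Library totals shift all members upward together, by which H2-Q7 and Tap2 with anti-IL-1b and H2-K1 with MCC950 cross 0.

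Genes with the nearest pattern over the 9 libraries were sought among 9181 genes by the distance between centred log2 CPM values. Nearest to H2-K1 were Ccm2 (0.06), Rpl18 (0.08) and Pfdn5 (0.08), with H2-D1 ranked 19. Nearest to B2m were Ythdc1 (0.05), Rlim (0.06) and Hmgb1 (0.06), with H2-D1, its nearest member, ranked 440. Nearest to Nlrc5 were Nktr (0.08), Dync1h1 (0.10) and Zswim8 (0.11), with Tap1 ranked 242. The 9 libraries fall into 3 groups, so these distances largely compare group steps.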

How the data were processed

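Per the submitters' processing notes, reads were aligned and quantified by the authors with STAR and RSEM on mm10, with no versions given. The deposited expected counts are RSEM's unnormalized estimates per gene, the deposited TPM values are relative to effective length, and the deposited FPKM values and effective lengths entered no result, per the file headers. The libraries were made with a directional kit, per the labels' protocols, but the strand setting of the counting is not given in these sources. Values of overlapping genes on opposite strands, such as Tap1 and Psmb9 or B2m and Patl2, are therefore uncertain. For the latter pair little was assigned to Patl2. It had 6, 12 and 35 counts in the anti-IL-1b, MCC950 and untreated groups, against 50090, 56860 and 73680 for B2m.

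Gene IDs were matched to GENCODE M21 (GRCm38, that is mm10), which named 99.5% of them. After rounding to whole counts, genes were tested with edgeR 4.0.16 in R 4.3.3 (quasi-likelihood test, robust fit, TMM, filterByExpr, 3 group means over 9 libraries), with two-sided p-values adjusted by the Benjamini-Hochberg method over 13374 genes and a threshold of 0.05. limma 3.58.1 on log2(TPM + 1), with a mean TPM of at least 1, and DESeq2 1.42.0 were alternatives, as were other scalings, filters, limma-voom, the replicate number as a block, and leaving out each library. The fit was tested on simulated data. Few genes were changed in them, in random directions, so they did not test the choice of scaling. Promoters are RefSeq windows of 250 bases before to 50 after a start site. All members and every gene of the fixed pathway lists could be named, with the 3 genes most like H2-K1, B2m and Nlrc5 among those at log2 CPM 2 or above on average, predicted genes left out. Some listed genes are not reported here, though the counts of their lists include them. The members and lists were chosen with earlier results of these data known. The labels do not tie libraries to single mice, so the p-values speak of variation among libraries alone, and it could be technical.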

Additional observations from a re-analysis of the deposited data

How the results depend on the processing

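Across TMM, RLE, upper-quartile and library-total scaling, 2 other filters, DESeq2, limma-voom, limma on log2(TPM + 1), a block and fits on 6 libraries, the members past the threshold numbered 6 to 8 for the antibody against untreated, 7 to 9 for MCC950 against untreated and 0 to 5 between the agents. Under library totals 2 of the members called against untreated turned sign, where H2-Q7 with the antibody came to 0.00312 (adjusted p = 0.933) and H2-K1 with MCC950 to 0.0174 (adjusted p = 0.524). Of the values that were not called, Tap2 with the antibody (-0.07) came to 0.06 and B2m between the agents (-0.00) to 0.01 under totals. On log2(TPM + 1), 12335 genes passed the filter, and calls numbered 3138 for MCC950 against untreated in place of 4921 and 586 between the agents in place of 1771, with 0 of 9 members (3 at an unadjusted p under 0.05) and a heavy chain sum of -0.0437 (adjusted p = 0.235). The cause was not tested. DESeq2 called 5 members between the agents, as edgeR did.

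The share of calls that were higher depended on scaling. With the antibody 2066 genes were higher and 2479 lower, against 2687 and 1941 under upper-quartile scaling, 3929 and 1344 under totals and 2517 and 820 on TPM. With MCC950 2369 were higher and 2552 lower, against 2859 and 2211 under upper-quartile scaling, 4009 and 1587 under totals and 2088 and 1050 on TPM. Between the agents it was 820 and 951, against 372 and 214 on TPM.

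Leaving out each library in turn gave 7 to 8, 9 and 4 to 6 members past the threshold for the antibody, MCC950 and between them, and heavy chain sums of -0.28 to -0.25, -0.16 to -0.14 and -0.12 to -0.09. Whether replicate numbers pair the libraries was not settled. Correlations of same-numbered deviations ran from -0.0972 to 0.142, and those of differently numbered ones from -0.176 to 0.0767. The highest values, 0.118 and 0.142, were between anti-IL-1b and MCC950 libraries of replicates 1 and 3. With the replicate block 8, 9 and 5 members passed, of 4483, 4855 and 1704 genes, and no call of a member changed. With 3 libraries a group, no check for outlying libraries was made.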
